A study of Ambystoma mexicanum with 20 samples.

Results

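RARG, the retinoic acid receptor gamma, and CRABP2, the cellular retinoic acid binding protein 2, were followed across regenerating limbs of the axolotl (Ambystoma mexicanum). The members are the transcripts that the study's lists of called transcripts pair with either symbol. The lists were at hand in a shortened form, and they paired 1 transcript with RARG (GFZP01065158.1) and 1 with CRABP2 (GFZP01111921.1). These are 2 of the 180605 transcripts measured, of which 4778 were paired with a symbol, and further transcripts of the same genes without a paired symbol were not analysed here. Their chromosome positions and sequences were not used here.

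Retinoic acid is made inside cells from retinol by way of retinaldehyde. CRABP2 is a small cytosolic protein that binds retinoic acid and carries it to the nucleus, where it is handed to the retinoic acid receptors. RARG is one of these receptors, a transcription factor that sits on DNA together with a retinoid X receptor and switches from repression to activation when it binds its ligand. In salamander limbs retinoic acid is known for shifting the positional identity of blastema cells toward the body, and the blastema is the mound of progenitor cells that rebuilds the limb.

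The study profiled 20 RNA sequencing samples, 10 of the epidermis (labelled wound epidermis) and 10 of the soft tissue beneath it (ST), in 5 groups of 2 biological replicates per tissue. The groups were 0 days post-amputation (dpa), 3 and 8 dpa with DMSO as the vehicle control, and 3 and 8 dpa with MS-275, a histone deacetylase inhibitor that was dissolved at 25 mM and injected in 2 µl under the wound epidermis of juvenile animals every second day. The 0 dpa samples also carry the label DMSO and were taken right after amputation. Each replicate pooled 4 limbs of 2 animals, and no strain, sex or genetic change was given. With 2 replicates per group, an exact permutation test of a single value cannot go below p = 0.333, so the tests below come from limma models fitted across all transcripts. The number of animals given in the methods implies that the ST and epidermis samples of a condition came from the same animals, but the labels do not tie them. At 0 dpa and at 3 dpa with DMSO the numbers in the column names differ, at least in part, between the tissues. The comparisons between tissues treat the 20 samples as independent. A replicate block, which fits a common shift between the replicate numbers over all samples, changed no call of either member between tissues. It does not model tissues of a condition that share animals.

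Levels are in TPM, a share of a sample's transcripts that is corrected for transcript length and has the same sum in every sample. Counts were not used here, so the counting error of each value and the depth behind it are unknown. The number of transcripts detected (TPM over 0) ran from 72566 to 92979. The 11 epidermis marker genes summed to 1551 to 6364 TPM in the epidermis and 71.3 to 1429 TPM in ST, and the 9 muscle genes to 0.90 to 218 TPM in the epidermis and 2609 to 40351 TPM in ST, which separates the tissues as labelled. No epidermis group was free of connective tissue signal, with 710 to 3864 TPM over 7 connective tissue genes. At 0 dpa these genes summed to 1498 and 3864 TPM in the epidermis, above the 1170 and 1410 TPM in ST.

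RARG was a low-abundance transcript with opposite starting points in the tissues. In ST it was barely present in the intact limb and reached its highest ST level at 8 dpa with DMSO, where blastema formation begins. Its TPM in ST was 0.09 and 0.28 at 0 dpa, 0.35 and 0.38 at 3 dpa and 2.25 and 2.04 at 8 dpa. Every later DMSO value lay above every earlier one, an order whose share among all transcripts was not counted. The mean at 8 dpa was 11.6 times that at 0 dpa. On the log2(TPM + 0.1) scale the rise from 0 to 8 dpa was 3.06 (95% interval 2.0 to 4.13), which passed the threshold in limma (adjusted p = 0.0020). The ST samples at 8 dpa helped to choose this transcript, so this p-value and interval are not independent of the choice. Any transcript with an adjusted p under 0.05 is referred to as called, and 27.5% of the transcripts tested were called higher in that comparison.

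The median transcript also rose between these samples, by 0.96 on the log2 scale, so that RARG rose by 2.1 relative to it. With samples rescaled by median ratios the rise was 1.99 with an adjusted p of 0.0458 in limma. The difference from 3 to 8 dpa was 2.27 and is given without a test, because the list that paired this transcript with RARG came from that comparison. The ST samples at 3 and 8 dpa with DMSO enter other comparisons of RARG. The p-values of those are not independent of the choice of the transcript. At 3 dpa the difference from 0 dpa was 0.79 (SE 0.46) and did not pass (limma, adjusted p = 0.310).

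In the epidermis RARG was present from the start and followed no comparable course. Its TPM was 1.96 and 3.83 at 0 dpa, 1.57 and 2.32 at 3 dpa and 3.24 and 4.62 at 8 dpa. The 0 dpa values overlapped those of both later times, while both values at 8 dpa lay above both at 3 dpa, a log2 difference of 0.98 that did not pass (limma, adjusted p = 0.151). The differences from 0 dpa were -0.50 at 3 dpa and 0.48 at 8 dpa, with adjusted p of 0.552 and 0.502 in limma. The change from 0 to 8 dpa was 2.58 (SE 0.55) larger in ST than in the epidermis on the log2 scale (limma interaction, adjusted p = 0.0183), a difference of changes for which 4.58% of transcripts were called in the same direction. The ST samples at 8 dpa helped to choose this transcript, so that p-value is not independent of the choice. The difference was 1.91 with an adjusted p of 0.134 in limma after rescaling. It also missed the threshold without either 8 dpa ST replicate (2.51 and 2.65), without epidermis replicate 2 at 0 dpa (2.11) or without epidermis replicate 1 at 8 dpa (2.33).

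By group mean the gap between the tissues was widest at 0 dpa. For the change from 0 to 3 dpa the difference between tissues was 1.29 on the log2 scale and did not pass in limma. The difference for the change from 0 to 8 dpa is given above with its limits. At 0 dpa the mean RARG level in ST was 6.39% of that in the epidermis, at 3 dpa 18.8% and at 8 dpa 54.6%. ST was lower at 0 dpa by 3.40 on the log2 scale (limma, adjusted p = 3.59e-05, 17% of transcripts called lower) and at 3 dpa by 2.11 (adjusted p = 0.00205, 5.95% called lower). At 8 dpa the log2 difference was -0.82 and did not pass (adjusted p = 0.191). With MS-275 ST was lower at 3 dpa by 1.44 (limma, adjusted p = 0.0295, 4.54% called lower), a call lost without any 1 of the 4 samples (range -1.51 to -1.37), and the difference of -0.85 at 8 dpa did not pass (adjusted p = 0.205). Ordered by mean, the groups ran from epidermis at 8 dpa with DMSO (3.93 ± 0.976 TPM, SD, n = 2) down to ST at 0 dpa (0.185 ± 0.134 TPM). The 5 highest groups were ST at 8 dpa with DMSO and all epidermis groups except 8 dpa with MS-275. Among them, neighbours in this order overlapped. The 5 lowest overlapped neither one another nor the group just above them.

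**Figure D1:**
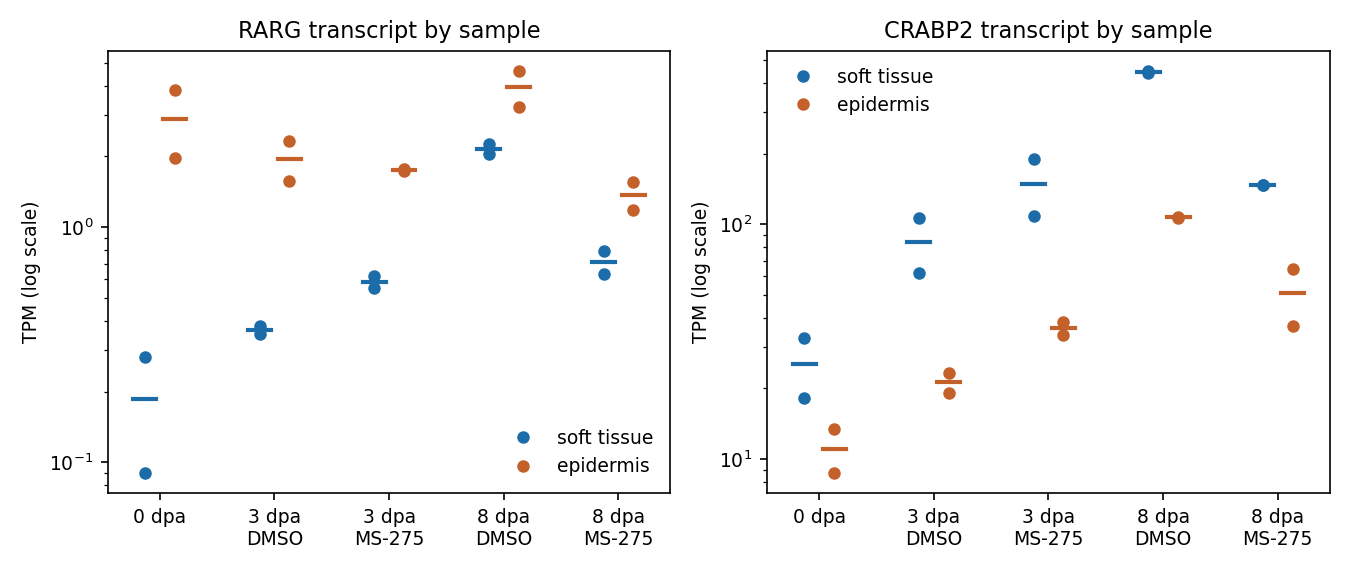
TPM of the RARG transcript (left) and the CRABP2 transcript (right) on log axes in every sample of ST (blue) and epidermis (orange), with points for the 2 replicates and a bar for their mean. RARG lies lower in ST at 0 and 3 dpa and rises to 2.25 and 2.04 TPM at 8 dpa with DMSO, and CRABP2 peaks at 449.63 and 439.43 TPM in the same ST samples.

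CRABP2 was far more abundant and climbed in both tissues. Its TPM in ST was 18.15 and 32.92 at 0 dpa, 61.78 and 106.83 at 3 dpa and 449.63 and 439.43 at 8 dpa with DMSO. In the epidermis it was 13.47 and 8.73, then 19.10 and 23.38, then 106.15 and 107.66. In each tissue the replicates of each time point lay above both of the time point before. How many of all transcripts kept this order was not counted. The mean at 8 dpa was 17.4 times that at 0 dpa in ST and 9.63 times that in the epidermis, or 4.18 and 3.29 on the log2 scale. After rescaling the log2 changes were 2.85 and 2.81, so the larger change in ST was not kept. These values, and the changes from 3 to 8 dpa of 2.45 in ST and 2.33 in the epidermis, are descriptions, because lists from those comparisons named the transcript.

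The list for 3 against 0 dpa in ST did not name CRABP2, but the samples of both groups entered lists that did, so the p-value of that comparison is not independent of the choice of the transcript. The same holds for every other comparison of CRABP2 with DMSO samples. CRABP2 rose between 0 and 3 dpa in ST by 1.73 (SE 0.39; limma, adjusted p = 0.0205), where 13.1% of transcripts were called higher. The call was lost after rescaling (0.95, adjusted p = 0.200), without ST replicate 1 at 0 dpa (1.30) or without ST replicate 2 at 3 dpa (1.33). In the epidermis the difference was 0.96 and did not pass (limma, adjusted p = 0.164, with 0.61% of transcripts called higher). The difference between these changes was 0.77 and did not pass (limma interaction, adjusted p = 0.417), so the tissues were not shown to differ.

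CRABP2 was higher in ST than in the epidermis in all 5 conditions, the reverse of RARG. In the DMSO arm the log2 difference was 1.17 in the intact limb, 1.94 at 3 dpa and 2.05 at 8 dpa (limma, adjusted p = 0.0364, 0.00252 and 0.00157). The share of transcripts called higher in ST was 4.75%, 7.9% and 8.49% in these comparisons. With MS-275 the difference was 1.99 at 3 dpa and 1.58 at 8 dpa (limma, adjusted p = 0.00392 and 0.0127, with 6.8% and 6.43% called higher). The call at 0 dpa was lost without ST replicate 2 (0.74) or epidermis replicate 2 (0.86), although rescaling enlarged it to 1.91. The call at 8 dpa with MS-275 was lost after rescaling (1.15, adjusted p = 0.0840), without either ST replicate (1.59 and 1.58) or without epidermis replicate 2 (1.18), and that at 3 dpa with MS-275 without ST replicate 1 (1.58).

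Ordered by mean, CRABP2 ran from ST at 8 dpa with DMSO (444.53 ± 7.21 TPM, SD, n = 2) to the epidermis at 0 dpa (11.1 ± 3.35 TPM). ST at 8 dpa with DMSO stood apart from every other group. Below it, ST at 3 dpa with MS-275 overlapped ST at 8 dpa with MS-275. The epidermis at 8 dpa overlapped ST at 3 dpa, which in turn overlapped the epidermis at 8 dpa with MS-275, and this group overlapped the epidermis at 3 dpa with MS-275. ST at 0 dpa overlapped the epidermis at 3 dpa.

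The question of the treatment arm was what histone deacetylase inhibition does to expression during wound healing (3 dpa) and early blastema formation (8 dpa). At 8 dpa both members were lower with MS-275 in both tissues, in each case with no overlap between the replicates. The share of all transcripts without overlap was not counted. RARG in ST was 0.79 and 0.63 TPM with MS-275 against 2.25 and 2.04 TPM with DMSO, and in the epidermis 1.55 and 1.18 TPM against 3.24 and 4.62 TPM. CRABP2 in ST was 146.46 and 147.26 TPM with MS-275 against 449.63 and 439.43 TPM, and in the epidermis 64.64 and 37.06 TPM against 106.15 and 107.66 TPM. The mean with MS-275 was 0.331 times that with DMSO for RARG and 0.330 times for CRABP2 in ST, and 0.347 and 0.476 times in the epidermis.

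Of these 4 differences at 8 dpa, those in the epidermis passed and those in ST did not. The 8 dpa DMSO samples are those in which the lists had CRABP2 as high in both tissues and RARG as high in ST, so that for these the fall with MS-275 is measured from a level that helped to choose the transcript, and the p-values are not independent of that choice. In the epidermis RARG fell by 1.45 on the log2 scale (SE 0.38; limma, adjusted p = 0.0431) and CRABP2 fell by 1.13 (SE 0.30; limma, adjusted p = 0.0460). In that comparison 10.2% of all transcripts were called lower and the median transcript moved by -0.48. Relative to that median the differences were -0.97 for RARG and -0.64 for CRABP2. After rescaling they were -0.77 and -0.41, with adjusted p of 0.247 and 0.436 in limma.

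Both epidermis calls were also lost without any 1 replicate of the epidermis at 8 dpa with DMSO, at 8 dpa with MS-275 or at 3 dpa with MS-275. Across all leave-outs the log2 difference then ranged from -1.70 to -1.20 for RARG and from -1.53 to -0.72 for CRABP2. In ST the difference was -1.48 for RARG (95% interval -2.54 to -0.41; limma, adjusted p = 0.146) and -1.60 for CRABP2 (95% interval -2.48 to -0.71; limma, adjusted p = 0.0858), where 0.826% of transcripts were called lower. Relative to the median transcript, which moved by -0.33, these were -1.14 and -1.26. A model of all 20 samples called the ST difference of CRABP2 (limma, adjusted p = 0.0310), and a pseudocount of 1 called that of RARG (-0.88, adjusted p = 0.0368). The MS-275 effects at 8 dpa were not shown to differ between tissues, with log2 differences of -0.03 for RARG (95% interval -1.21 to 1.16) and -0.47 for CRABP2 (95% interval -1.59 to 0.65; limma interaction, adjusted p = 0.996 and 0.879).

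At 3 dpa no MS-275 difference of either member passed. CRABP2 was 189.82 and 108.04 TPM with MS-275 against 61.78 and 106.83 TPM with DMSO in ST, and 38.36 and 33.72 TPM against 19.10 and 23.38 TPM in the epidermis. The treated samples lay above the controls in both tissues, in ST narrowly so. The share of all transcripts in that order was not counted. The log2 differences of 0.82 in ST and 0.76 in the epidermis did not pass (limma, adjusted p = 0.284 and 0.281). RARG was 0.55 and 0.62 TPM against 0.35 and 0.38 TPM in ST, and 1.74 and 1.77 TPM against 1.57 and 2.32 TPM in the epidermis, where the groups overlapped. Its log2 differences were 0.56 and -0.12 (limma, adjusted p = 0.552 and 0.931).

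The MS-275 effect at 8 dpa less that at 3 dpa contains the change from 3 to 8 dpa under DMSO, from which lists named CRABP2 in both tissues and RARG in ST, so these values are descriptions. For CRABP2 the log2 difference of the effects was -1.89 in the epidermis and -2.41 in ST, and after rescaling it was -0.94 and -1.88. Leaving out 1 replicate gave -2.29 to -1.49 in the epidermis and -2.82 to -2.01 in ST. For RARG in ST it was -2.03, and -1.52 after rescaling. The difference for RARG in the epidermis was -1.33 and did not pass (limma, adjusted p = 0.180).

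**Figure D2:**
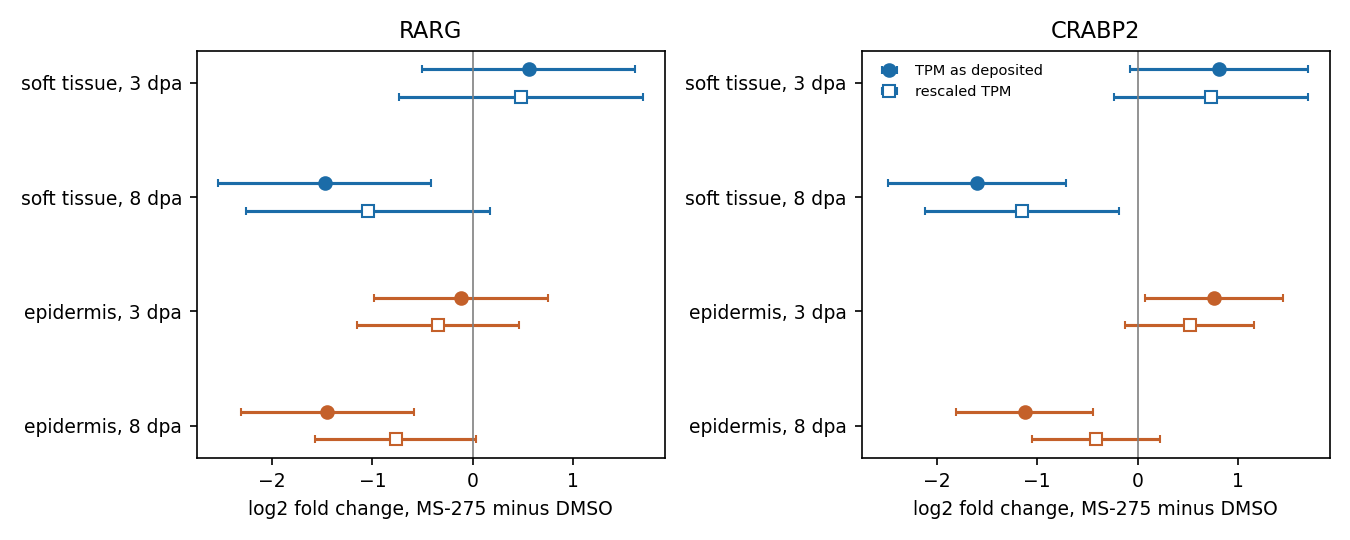
Log2 fold change of RARG (left) and CRABP2 (right) with MS-275 against DMSO, by tissue and time point, from limma with 95% intervals as bars, n = 2 per group. Filled circles are TPM as deposited and open squares TPM rescaled by median ratios. At 8 dpa all deposited estimates lie below 0, from -1.60 to -1.13, and rescaling brings those of the epidermis to -0.77 and -0.41.

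Within the MS-275 arm neither member was shown to differ between 3 and 8 dpa. In ST the mean was 148.93 ± 57.8 TPM at 3 dpa and 146.86 ± 0.566 TPM at 8 dpa (SD, n = 2 each), a log2 difference of 0.04 (95% interval -0.85 to 0.92) that did not pass (limma, adjusted p = 0.989), and the DMSO mean was 5.27 times as high at 8 as at 3 dpa. In the epidermis the difference was 0.44 (limma, adjusted p = 0.610). RARG differed by 0.24 in ST and by -0.35 in the epidermis (limma, adjusted p = 0.902 and 0.767).

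CRABP2 was nevertheless above 0 dpa in every MS-275 group, although the 0 dpa pair of each tissue entered the lists that named it, so these p-values are not independent of that choice. In ST it rose by 2.55 at 3 dpa and 2.58 at 8 dpa (limma, adjusted p = 0.00316 and 0.00298), where 18% and 16.8% of transcripts were called higher. In the epidermis it rose by 1.72 and 2.16 (limma, adjusted p = 0.0162 and 0.00643, with 4.12% and 3.48% called higher). The value at 3 dpa in the epidermis was not called without epidermis replicate 2 at 0 dpa (1.41) or without either replicate of 3 dpa with MS-275 (1.63 and 1.81). RARG rose in ST between 0 dpa and 8 dpa with MS-275 by 1.58 (limma, adjusted p = 0.0478), a call lost after rescaling (0.94, adjusted p = 0.306) and without any 1 ST replicate other than replicate 2 at 0 dpa (range of all leave-outs 1.08 to 2.08). All comparisons with 0 dpa in a tissue share the same pair of control samples.

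Bulk samples mix cell types, and fewer cells of a type cannot be told apart from less RNA per cell. The summed TPM of the 7 connective tissue genes moved with CRABP2 in ST. In the DMSO arm it was 1170 to 1410 before regeneration, 2245 to 3531 at 3 dpa and 9155 to 9214 at 8 dpa. In the MS-275 arm it was 4673 to 6032 and then 4614 to 5494, and no gene of the list was at 0. Per 1000 TPM of these genes, a ratio chosen after the values were seen, CRABP2 in ST was 15.5 and 23.4 at 0 dpa, 27.5 and 30.3 at 3 dpa and 49.1 and 47.7 at 8 dpa. With MS-275 it was 31.5 and 23.1 at 3 dpa and 26.7 and 31.9 at 8 dpa. Single genes of the list gave other ratios. In ST at 8 dpa the limb mesenchyme transcription factor PRRX1 was 75.52 and 76.31 TPM with DMSO and 28.35 and 27.48 TPM with MS-275, and the growth factor receptor PDGFRA 17.33 and 16.40 TPM and then 5.56 and 5.97 TPM. CRABP2 per TPM of PDGFRA, also chosen after the values were seen, was 25.9 and 26.8 with DMSO and 26.3 and 24.7 with MS-275, where the groups overlapped. Per TPM of PRRX1 it was 5.95 and 5.76 and then 5.17 and 5.36. Per TPM of each other gene of the list, COL1A1, COL1A2, COL3A1, DCN and LUM, CRABP2 was lower with MS-275 without overlap. Of these, DCN was 693.22 and 698 TPM with DMSO and 435.51 and 401.87 TPM with MS-275. At 3 dpa in ST the ratios to PDGFRA and PRRX1 were higher with MS-275. Those to COL1A1, COL1A2, COL3A1 and DCN overlapped between the groups, and that to LUM was lower with MS-275. Per TPM of PDGFRA CRABP2 was then 15.4 and 21.8 with DMSO and 42.0 and 27.9 with MS-275. Per TPM of PRRX1 it was 3.48 and 4.53 and then 10.3 and 7.13. In the epidermis the ratio to the whole list was 56.6 and 56.7 at 8 dpa with DMSO and 37.5 and 34.8 with MS-275. In the same samples the ratio to PDGFRA went the other way, from 28.7 and 32.1 to 37.1 and 34. The ratio to PRRX1 was 14.7 and 17.2 and then 10.1 and 11.8.

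For RARG the cell type to compare is the epidermis, where its level was higher. In the DMSO arm the epidermis list summed in ST to 146 to 168 TPM in the intact limb, 71.3 to 141 TPM at 3 dpa and 296 to 304 TPM at 8 dpa. In the MS-275 arm it summed to 575 to 1429 TPM and then 98.8 to 102 TPM. In this order, the means as a share of those in the epidermis samples were 9.84%, 3.44%, 7.0%, 16.4% and 2.49%. RARG in ST reached 6.39%, 18.8%, 54.6%, 33.3% and 52.0% of its epidermis level in the same order, a share above that of the marker list in every condition but 0 dpa. The basal keratin KRT5 was 0.18 and 0.21 TPM and the epithelial regulator TP63 was 0.86 and 1.16 TPM in ST at 8 dpa with DMSO, against 13.53 and 9.49 TPM and 13.26 and 19.22 TPM in the epidermis. Muscle signal in ST ran the other way, from 22754 to 40351 TPM at 0 dpa to 2609 to 3025 TPM at 8 dpa, and was 7277 to 8255 TPM at 8 dpa with MS-275. Leukocyte genes in ST summed to 94.8 to 100 TPM at 0 dpa and to 969 to 1005 TPM at 8 dpa, and were 913 to 1003 TPM at 8 dpa with MS-275. The part of these cell types in the changes of either member was not tested.

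**Figure D3:**
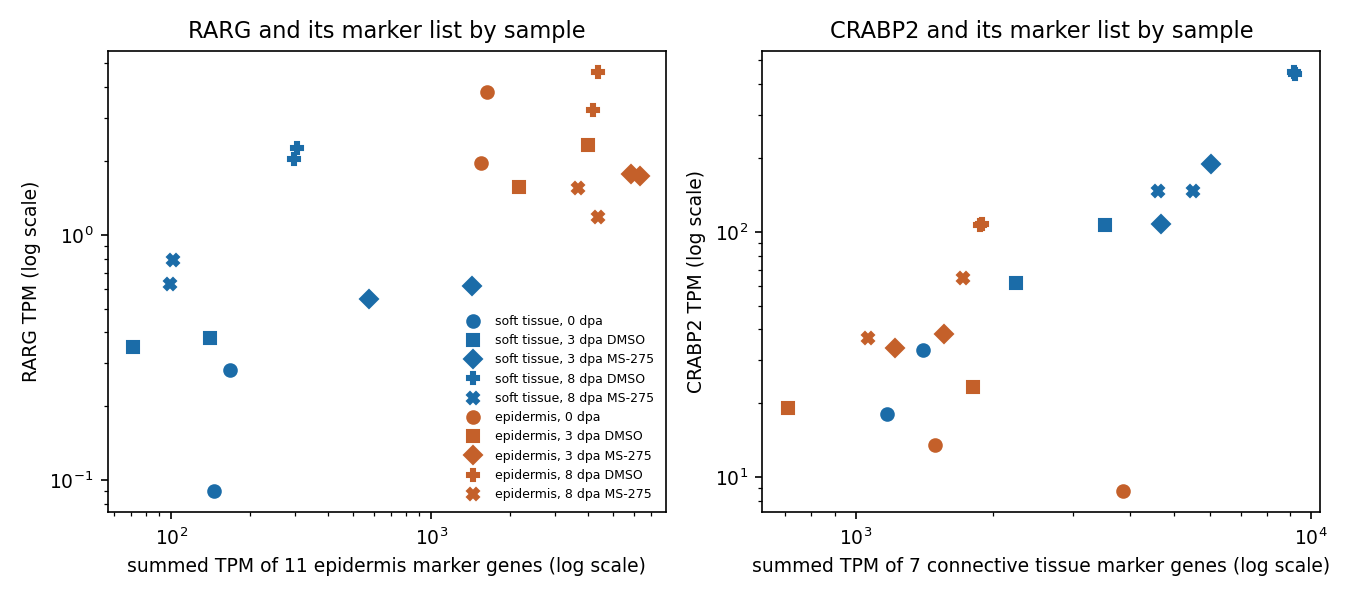
Each sample's RARG TPM against the summed TPM of 11 epidermis marker genes (left) and its CRABP2 TPM against the summed TPM of 7 connective tissue marker genes (right), all axes log, with colour for tissue and shape for condition. ST at 8 dpa with DMSO has RARG levels of 2.25 and 2.04 TPM at 296 to 304 TPM of epidermis markers, and its CRABP2 and connective tissue values are the highest of the series.

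The ratio of the CRABP2 transcript to the RARG transcript also separated the tissues, and protein was not measured. CRABP2 exceeded RARG in TPM in all 20 samples, by 118 to 345 times in ST (median 201) and 2.28 to 41.7 times elsewhere (median 20.5). Among all transcripts with a TPM above 0 in a sample, CRABP2 held percentiles 97.1 to 99.6 in ST samples and 92.9 to 98.8 in epidermis samples. RARG held percentiles 15.2 to 75.3 and 71.9 to 86.2. These ratios and ranks are descriptions without a test.

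Transcripts with the most similar course were found by Pearson's r of log2(TPM + 0.1) among paired transcripts with a mean of at least 1 TPM, as a description over samples that share tissues, time points and treatment. Over the 20 samples, of 3906 candidates, those nearest to RARG were Erbb2, a receptor tyrosine kinase (r = 0.965), GOLM1 (0.927), CRYBG1 (0.923), CAPN9 (0.918) and Myof (0.914). Erbb2 was 0.89 and 0.85 TPM in ST at 0 dpa, 3.03 and 2.89 TPM at 8 dpa with DMSO and 1.71 and 1.52 TPM at 8 dpa with MS-275. Over the 10 ST samples alone, of 3830 candidates, the nearest were the hedgehog pathway transcription factor GLI3 (0.988), the ETS transcription factor ETV4 (0.984), Tril (0.981), the limb transcription factor hand2 (0.979) and the collagen uptake receptor MRC2 (0.979). GLI3 in ST was 0.24 and 0.49 TPM at 0 dpa, 3.61 and 3.75 TPM at 8 dpa with DMSO and 1.34 and 1.16 TPM with MS-275.

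The nearest to CRABP2 over 20 samples were the fibrillar collagen COL11A1 (0.983), the collagen-binding integrin Itga11 (0.976), fibronectin fn1 (0.975), the growth factor midkine mdk-a (0.971) and fibulin FBLN1 (0.970). In ST they were Antxr1 (0.996), CCDC80 (0.995), LAMA1 (0.992), Col5a2 (0.990) and fn1 (0.990). Fibronectin fn1 was 16.56 and 26.74 TPM in ST at 0 dpa, 462.67 and 466.29 TPM at 8 dpa with DMSO and 181.97 and 157.32 TPM with MS-275, close in level to CRABP2 itself.

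Around these 2 genes, 14 further transcripts of retinoid pathway genes, 2 of them of RAI14, were paired with a symbol. They too were paired through the study's lists for control time points, for example 4 of the 14 through the list for 8 against 0 dpa in ST, so their control time courses are given as counts with no weight. Between 0 and 8 dpa in ST, 8 of 14 were called higher and 1 lower, with a median log2 change of 1.79 against 0.96 for all transcripts, of which 30% were called in either direction. After rescaling 6 were called higher and 2 lower (median 0.96 against 0.05), and the share of all transcripts called under that setting is not given here. In the epidermis 4 were called higher and 4 lower (median 0.45 against 0.32), with 5.68% of all transcripts called.

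Carriers and uptake came first in the pathway. RBP4, the blood carrier of retinol, rose in the epidermis with MS-275 at 8 dpa from 2.41 and 2.53 TPM to 6.65 and 6.23 TPM. The log2 rise was 1.35 (limma, adjusted p = 0.0343), measured from DMSO samples of lists that had named RBP4. RBP7, a cellular retinol-binding protein, rose in ST at 8 dpa from 3.90 and 3.42 TPM with DMSO to 11.41 and 16.10 TPM with MS-275, by 1.86 (limma, adjusted p = 0.0430). Both were opposite in direction to RARG and CRABP2 in the same comparison. LRP2, an endocytic receptor for the carrier, was listed at 0 in ST at 0 and 3 dpa with DMSO and at 0.16 and 0.24 TPM at 8 dpa.

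Among the enzymes, the retinol dehydrogenase SDR16C5 fell in the epidermis with MS-275 at 8 dpa, from 25.45 and 24.62 TPM to 15.93 and 11.63 TPM, by 0.87 on the log2 scale (limma, adjusted p = 0.0395), but by 0.16 after rescaling (adjusted p = 0.703). ALDH1A3, which makes retinoic acid from retinaldehyde, was 10.01 and 10.38 TPM in ST at 8 dpa with DMSO and 11.74 and 12 TPM with MS-275. Its log2 difference was 0.22 and did not pass (limma, adjusted p = 0.846). CYP27C1, a retinol desaturase, was 1.48 and 1.54 TPM in ST at 0 dpa, 15.45 and 12.01 TPM at 8 dpa with DMSO and 6.63 and 6.74 TPM with MS-275, a log2 difference of -1.02 that did not pass (limma, adjusted p = 0.159). The retinoid isomerase RPE65 was 4.04 and 3.88 TPM in ST at 8 dpa with DMSO and 1.81 and 2.23 TPM with MS-275 (-0.94; limma, adjusted p = 0.283). The alcohol dehydrogenase ADH4 was the most abundant of the list in both tissues at 0 dpa, at 217.53 and 398.14 TPM in ST and 352.61 and 386.23 TPM in the epidermis, against 84.39 and 85.18 TPM and 96.67 and 84.03 TPM at 8 dpa with DMSO.

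At 3 dpa 3 of the 14 transcripts rose with MS-275 in ST, where 2.86% of all transcripts were called higher. FABP5, a fatty acid binding protein that also carries retinoic acid, was 0.91 and 8.38 TPM with DMSO and 56.71 and 77.26 TPM with MS-275, a log2 rise of 4.50 (limma, adjusted p = 0.0308). RPE65 was 0.19 and 0.30 TPM and then 1.70 and 0.94 TPM. The rise of 2.01 (limma, adjusted p = 0.0487) was measured from DMSO samples of a list that had named RPE65. It was not called after rescaling (1.92; limma, adjusted p = 0.0514). DHRS4, a retinal reductase, was listed at 0 in both DMSO replicates and at 0.38 and 1.16 TPM with MS-275 (limma, adjusted p = 0.0279). In the epidermis FABP5 was 427.25 and 514.82 TPM and DHRS4 1.40 and 1.56 TPM in the same condition, and the epidermis markers in these ST samples were the highest of all ST samples (575 to 1429 TPM). In the epidermis at 3 dpa limma called 0 of the 14 with MS-275, where 0.418% of all transcripts were called. At an unadjusted p under 0.05 there were 6 of the 14. The share of all transcripts at that unadjusted threshold is not given here, so the 6 carry no weight.

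PPARD, the nuclear receptor to which FABP5 delivers its ligand, was 1.88 and 1.48 TPM in ST at 0 dpa and 11.23 and 11.14 TPM at 8 dpa with DMSO. It was 9.80 and 9.66 TPM at 8 dpa with MS-275, a log2 difference of -0.20 that did not pass (SE 0.21; limma, adjusted p = 0.654). Of the genes named for a response to retinoic acid, RAI14 had 2 transcripts. GFZP01005931.1 was 22.40 and 23.66 TPM in ST at 8 dpa with DMSO and 8.15 and 9.04 TPM with MS-275. The fall of 1.41 (limma, adjusted p = 0.0495) was measured from DMSO samples of a list that had named the transcript. It was not called after rescaling (-0.97; limma, adjusted p = 0.184). GFZP01003843.1 was 7.23 and 7.95 TPM and then 3.15 and 3.40 TPM (-1.19; limma, adjusted p = 0.0750). RARRES1 was 31.05 and 36.99 TPM and then 73.36 and 144.78 TPM, a log2 difference of 1.60 that did not pass (limma, adjusted p = 0.0840). The ST samples at 8 dpa with DMSO also entered lists that had named CYP27C1, RPE65, PPARD, GFZP01003843.1 and RARRES1. The p-values of their MS-275 differences at 8 dpa in ST are not independent of that choice.

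Every one of these MS-275 calls on pathway transcripts was lost without at least 1 replicate. For RBP7 and RAI14 in ST and RBP4 and SDR16C5 in the epidermis at 8 dpa the libraries were any 1 of that tissue's 8 dpa DMSO, 8 dpa MS-275 or 3 dpa MS-275 replicates. For FABP5 they were any 1 of the ST replicates at 8 dpa with either treatment or at 3 dpa with MS-275, for RPE65 any 1 at 3 or 8 dpa with either treatment, and for DHRS4 any 1 at 3 or 8 dpa except replicate 1 of 3 dpa with MS-275. In all, 1 of 14 was called higher and 1 lower with MS-275 at 8 dpa in each tissue, where 1.26% of all transcripts in ST and 12.2% in the epidermis were called in either direction. The list's median log2 difference was -0.32 in ST, against -0.33 for all transcripts, and 0.14 in the epidermis, against -0.48. After rescaling 1 was called higher and 0 lower in ST (median 0.13 against 0.01), and 4 higher and 0 lower in the epidermis (median 0.59 against 0.03). The share of all transcripts called after rescaling is not given here, so these rescaled counts carry no weight.

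**Figure D4:**
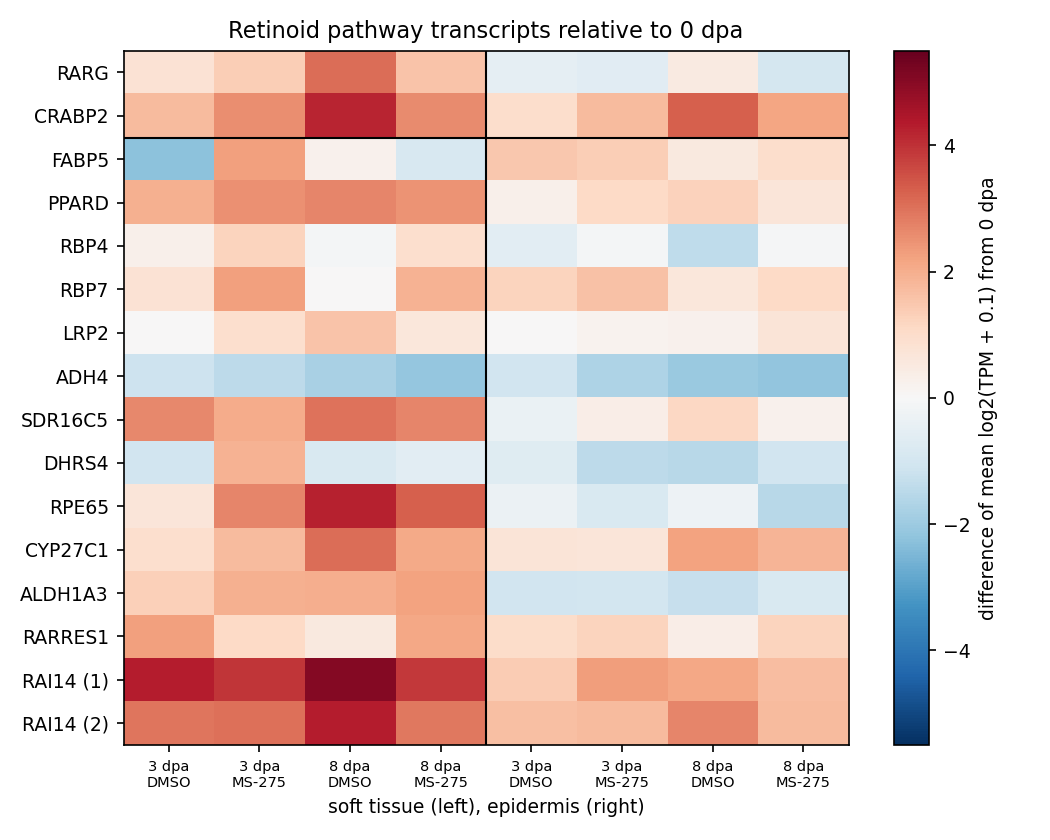
Mean log2(TPM + 0.1) difference from 0 dpa of the same tissue for RARG, CRABP2 and the 14 other retinoid pathway transcripts in ST (left block) and epidermis (right block), red for higher and blue for lower, n = 2 per group. CRABP2 is 4.18 at 8 dpa with DMSO in ST and 2.58 with MS-275, and RARG 3.06 and 1.58.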

How the data were processed

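RNA was sequenced from the 20 samples described above. Per the study's methods the authors checked reads with FastQC 0.11.7, trimmed them with cutadapt 2.10, aligned them with bowtie2 2.3.4 to an axolotl transcriptome and quantified transcripts with RSEM. The authors deposited TPM per transcript, rounded to 2 decimals, without scaling between samples. Their scaled counts, on which they ran limma's voom, were not used here. A TPM is a share, so transcripts that take much of a library lower all others in it.

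All 20 columns were assigned through their sample labels. A transcript was kept where 5 or more of a tissue's 10 samples had a TPM above 0. Kept transcripts were fitted with limma 3.58.1 in R 4.3.3 on log2(TPM + 0.1), with a trend, per tissue (8 comparisons) or over all 20 samples (5 comparisons between tissues and the interactions). P-values were two-sided with Benjamini-Hochberg adjustment over all transcripts tested, and the code was tested on simulated data. A fold change on this scale understates that of low transcripts. Comparisons whose list named a member, and differences that contain them, were not tested.

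Named genes were the members, a fixed retinoid list, fixed marker lists and the 5 transcripts most like each member over 20 and over 10 samples. Of the retinoid list, 1 gene is not reported here. The members and lists were chosen with earlier results of these data known. Alternatives were no filter, a mean TPM of 1 or more, a pseudocount of 1, rescaling by median ratios, no trend, a replicate block, 1 model of 20 samples and leaving out each replicate. For the pathway transcripts these, and the ratios of CRABP2 to connective tissue genes, were added after seeing the data.

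Replicate numbers were not taken as pairs. Deviations from group means of same-numbered samples correlated between -0.100 and 0.0650 in ST, between -0.0685 and 0.121 in the epidermis, and between -0.00237 and 0.147 across tissues.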

Additional observations from a re-analysis of the deposited data

Results flagged for a closer look

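These are differences of an effect between tissues or time points, given as log2 values without an explanation. CRABP2 in both tissues and RARG in ST were flagged because both MS-275 samples lay above both controls at 3 dpa and below them at 8 dpa. That order was the rule for flagging and lends no support. The share of all transcripts with that order was not counted. The effect at 8 dpa less that at 3 dpa was -1.89 for CRABP2 in the epidermis, -2.41 for CRABP2 in ST and -2.03 for RARG in ST. These differences were not tested, since lists from the change from 3 to 8 dpa with DMSO had named the transcripts.

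The other differences passed the threshold in limma. In the epidermis the effect at 8 dpa less that at 3 dpa was -1.63 for SDR16C5 (adjusted p = 0.0315 in limma) and -1.43 for PPARD (adjusted p = 0.0467 in limma). In that comparison 4% of all transcripts were called lower and the median transcript moved by -0.66. After rescaling SDR16C5 and PPARD were at -0.68 and -0.49 and were not called (limma, adjusted p = 0.333 and 0.371). The call of SDR16C5 was lost in 7 of 10 leave-outs (range -1.85 to -1.40), which took out replicate 1 of 3 dpa with DMSO or either replicate of 8 dpa with DMSO, 3 dpa with MS-275 or 8 dpa with MS-275. That of PPARD was lost in 9 of 10 (range -1.71 to -1.15), all but that without replicate 2 of 3 dpa with DMSO.

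The change of RARG from 0 to 8 dpa was 2.58 larger in ST than in the epidermis (adjusted p = 0.0183 in limma). The ST samples at 8 dpa helped to choose this transcript, so the p-value is not independent of that choice. After rescaling the difference was 1.91 and not called (limma, adjusted p = 0.134). The change from 0 to 8 dpa was also larger in ST by 1.86 for SDR16C5 (adjusted p = 0.00689 in limma), and that from 0 to 3 dpa by 2.36 for ALDH1A3 and 1.67 for PPARD (adjusted p = 0.0240 and 0.00601 in limma). After rescaling these 3 were 0.95, 1.31 and 0.62 and were not called (limma, adjusted p = 0.200, 0.153 and 0.175). ALDH1A3 was also lost without ST replicate 2 at 3 dpa, either epidermis replicate at 0 dpa or epidermis replicate 1 at 3 dpa (range of all leave-outs 1.48 to 3.23). The differences of SDR16C5, ALDH1A3 and PPARD each use 0 dpa samples of a list that had named the transcript. Their p-values are not independent of that choice. Of all transcripts, 4.58% were called larger in ST for the change from 0 to 8 dpa and 6.32% for that from 0 to 3 dpa.

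For the transcripts that a list of the same control comparison had paired with their symbol, the values are descriptions. From 0 to 8 dpa these were 4.53 for RPE65, 3.29 for ALDH1A3, 1.40 for PPARD and 2.95 for RAI14 (GFZP01003843.1). From 0 to 3 dpa they were 3.03 for SDR16C5, 2.92 for the same RAI14 transcript and -3.75 for FABP5.

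The MS-275 effect on DHRS4 at 3 dpa was 3.70 larger in ST than in the epidermis (adjusted p = 0.0323 in limma, with 0.302% of all transcripts called higher), a value that depends on the pseudocount because both ST replicates with DMSO are listed at 0. With a pseudocount of 1 it was 1.31 and not called (limma, adjusted p = 0.0934). It was also lost in 9 of 20 leave-outs (range 3.01 to 4.40), which took out ST replicate 1 of 3 dpa with DMSO, ST replicate 2 of 3 dpa with MS-275, epidermis replicate 2 of 3 dpa with DMSO, or either epidermis replicate of 8 dpa with DMSO, 3 dpa with MS-275 or 8 dpa with MS-275.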

How the results depend on the processing

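The alternatives were compared on log2 differences, with limma's adjusted p in parentheses where a call changed. With TPM rescaled by median ratios, RARG in ST was 1.74 from 3 to 8 dpa, -1.52 for the time difference of the MS-275 effect and 0.94 from 0 to 8 dpa with MS-275 (0.306), its epidermis effect of MS-275 at 8 dpa was -0.77 (0.247), and its tissue difference of the change from 0 to 8 dpa was 1.91 (0.134). CRABP2 in ST was then 0.95 from 0 to 3 dpa (0.200), 2.85 from 0 to 8 dpa, 1.90 from 3 to 8 dpa and -1.88 for the time difference of the MS-275 effect. In the epidermis it was 2.81 from 0 to 8 dpa, 1.62 from 3 to 8 dpa, -0.41 for MS-275 at 8 dpa (0.436) and -0.94 for the difference of that effect from 3 dpa. Its difference between ST and epidermis at 8 dpa with MS-275 was 1.15 (0.0840). The tissue differences of its changes from 0 dpa were -0.036 at 8 dpa and -0.31 at 3 dpa. Before rescaling they were 0.89 and 0.77, so both turned sign. By construction, rescaling removes the shift of the median transcript.

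With a pseudocount of 1, RARG was 1.20 from 3 to 8 dpa in ST, 0.53 from 0 to 8 dpa with MS-275 (0.0806), -0.88 for MS-275 at 8 dpa in ST (0.0368), -1.10 for its time difference there, 1.04 for the tissue difference of its change from 0 to 8 dpa (0.0591) and 0.17, with its sign turned, for the tissue difference of the MS-275 effect at 8 dpa. The other settings left each estimate as it was and moved the adjusted p. Without the filter, calls were lost for RARG from 0 to 8 dpa with MS-275 in ST (1.58, 0.0542), for MS-275 at 8 dpa in the epidermis (RARG -1.45, 0.0598, and CRABP2 -1.13, 0.0683) and for CRABP2 between tissues at 0 dpa (1.17, 0.0533). Without the trend, the last 3 of these had adjusted p of 0.0658, 0.0968 and 0.0641, and RARG from 0 to 3 dpa with MS-275 in ST was called (1.35, 0.0477). In 1 model of 20 samples that value was called too (0.0232), as was the MS-275 effect at 8 dpa for CRABP2 in ST (-1.60, 0.0310), while that in the epidermis was lost (0.0615). The replicate block lost the call of RARG from 0 to 8 dpa with MS-275 in ST (1.58, 0.0701) and changed no other call of a member. A minimum mean TPM of 1 left RARG in ST without a value. The cause of the lost and gained calls was not tested.

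Leaving out 1 replicate leaves a lone sample, assumed to vary like the other groups. For RARG the values then ranged from 0.85 to 1.85 for 3 dpa with MS-275 against 0 dpa in ST, from 1.08 to 2.08 for 8 dpa with MS-275 against 0 dpa in ST, from -0.38 to 0.15 for MS-275 at 3 dpa and from -1.70 to -1.20 at 8 dpa in the epidermis, from -1.51 to -1.37 between tissues at 3 dpa with MS-275, from -0.28 to 0.22 for the tissue difference of the MS-275 effect at 8 dpa and from 2.08 to 3.08 for that of the change from 0 to 8 dpa. The RARG difference between tissues at 3 dpa with MS-275 (-1.44, adjusted p = 0.0295 in limma) was lost without any 1 of its 4 samples. For CRABP2 in ST they ranged from 1.30 to 2.16 at 3 dpa, from 3.75 to 4.61 at 8 dpa, from 2.06 to 2.84 between these, from -0.37 to 0.44 between the MS-275 time points and from -2.82 to -2.01 for the time difference of the MS-275 effect. In the epidermis they ranged from 2.98 to 3.6 at 8 dpa, from 1.41 to 2.03 at 3 dpa with MS-275, from -1.53 to -0.72 for MS-275 at 8 dpa and from -2.29 to -1.49 for the time difference. Between tissues CRABP2 ranged from 0.74 to 1.59 at 0 dpa, from 1.58 to 2.40 at 3 dpa with MS-275, from 1.18 to 1.98 at 8 dpa with MS-275, from -0.35 to 0.46 for the MS-275 effect at 3 dpa and from 0.46 to 1.32 for the change from 0 to 8 dpa.

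Of the called pathway results, none changed sign. Calls were lost in 27 of them after rescaling, 29 without the trend, 16 with the block, 15 without the filter, 12 in 1 model and 5 with a pseudocount of 1. Depth is unknown, so the precision of RARG, mostly under 3 TPM, cannot be stated, and the rounding to 2 decimals is coarse at its lowest value of 0.09 TPM.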
